A study of Homo sapiens with 6 samples.

Results

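The genes described here are 10 components of histone H3 lysine 4 methylation: the methyltransferases KMT2A, KMT2B, KMT2C, KMT2D, SETD1A, SETD1B and SETD7, and the shared subunits ASH2L, WDR5 and DPY30. They were chosen by gene symbol from the 19775 genes that the arrays name. Their 34 probe sets with 1 gene symbol were used, and 3 probe sets that also carry the symbol of another gene were set aside. Transcripts were measured on 6 arrays of H1299, an established line from a human lung carcinoma of the non-small-cell type, harvested 72 hours after lentiviral infection. The groups were cells with the shRNA RBP2 KD1, cells with the separate shRNA RBP2 KD2, and cells with a scramble shRNA (SC), with 2 arrays each. All 3 groups carried a lentiviral shRNA, and an uninfected group was not analysed here. KDM5A, formerly called RBP2, is the demethylase that removes methyl groups from lysine 4 of histone H3.

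Methylation of this lysine marks active promoters and enhancers. KMT2A to KMT2D and SETD1A and SETD1B each carry a catalytic SET domain and work in separate complexes of the COMPASS family, in which WDR5, ASH2L, DPY30 and RBBP5 form a common core that the SET domain needs for full activity. SETD7 stands apart: it acts alone, adds a single methyl group, and methylates many proteins other than histones. KDM5A works against these enzymes, so the design allows the question whether transcripts of the writers move when this eraser is depleted.

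Values are log2 expression per probe set, normalised by the authors with GCRMA, and the brightest probe set stood for each gene. The median over the 10526 tested genes lay between 8.49 and 8.56 on the 6 arrays. KDM5A, the target, read 7.42 and 7.27 in KD1 cells, 6.66 and 6.72 in KD2 cells, and 9.35 and 9.42 in SC cells, so all 4 knockdown arrays lay below both SC arrays. Its log2 fold change was -2.04 ± 0.11 for KD1 minus SC (SE, limma adjusted p = 0.00475) and -2.69 ± 0.11 for KD2 minus SC (adjusted p = 0.00237). Of the line's expected features, KRT8, KRT18 and the mesenchymal genes VIM, CDH2 and ZEB1 all read at least 9.08. KRT19, EPCAM and CDH1 were at 2.30 or below, so epithelial adhesion markers were not detected. Of 4 lung lineage markers 3 (NKX2-1, SFTPC and NAPSA) were at 2.82 or below. The remaining one, SFTPB, read 4.96 on every array except KD1 replicate 2 (5.17). KRT8 read higher on all 4 knockdown arrays, by 0.56 in the mean (adjusted p = 0.0442), and CDH2 higher with KD2, by 0.69 (adjusted p = 0.0431), and the part of such shifts in the other results was not tested. All 3 leukocyte and 3 endothelial markers measured were below 4, as were 3 of 4 fibroblast markers, COL1A1 being the exception. Whether replicates came from separate cultures is not stated, so p-values measure how far these samples spread, and that spread may be technical. In bulk RNA, fewer cells expressing a gene and less of its RNA per cell cannot be told apart.

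Across the set, the lone-acting enzyme fell with both shRNAs. All 5 tested genes of the large KMT2 and SETD1 enzymes had positive values in the mean of both shRNAs, 1 of which passed. Over all tested genes 52.2% of these values were positive, and KMT2C was negative with KD1 (-0.29). A gene was called at a limma adjusted p under 0.05, adjusted over all tested genes. In the mean of both shRNAs minus SC, 1 of 9 tested members rose (KMT2B) and 1 fell (SETD7), where 12.5% of all tested genes were called, 5.61% higher and 6.92% lower. All 4 knockdown arrays lay above both SC arrays for 4 members (KMT2A, KMT2B, KMT2D and SETD1B) and below them for SETD7, against 12.9% of all tested genes above and 9.03% below. The median log2 fold change of the 9 was 0.22, beside 0.02 for all tested genes. SETD1A was not tested, since its only probe set read 3.62 on all 6 arrays, under the limit of a mean of 4. With the replicate number as a block, 4 members rose (KMT2A, KMT2B, KMT2D and SETD1B) and SETD7 fell, where 34.9% of all tested genes were called.

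**Figure D1:**
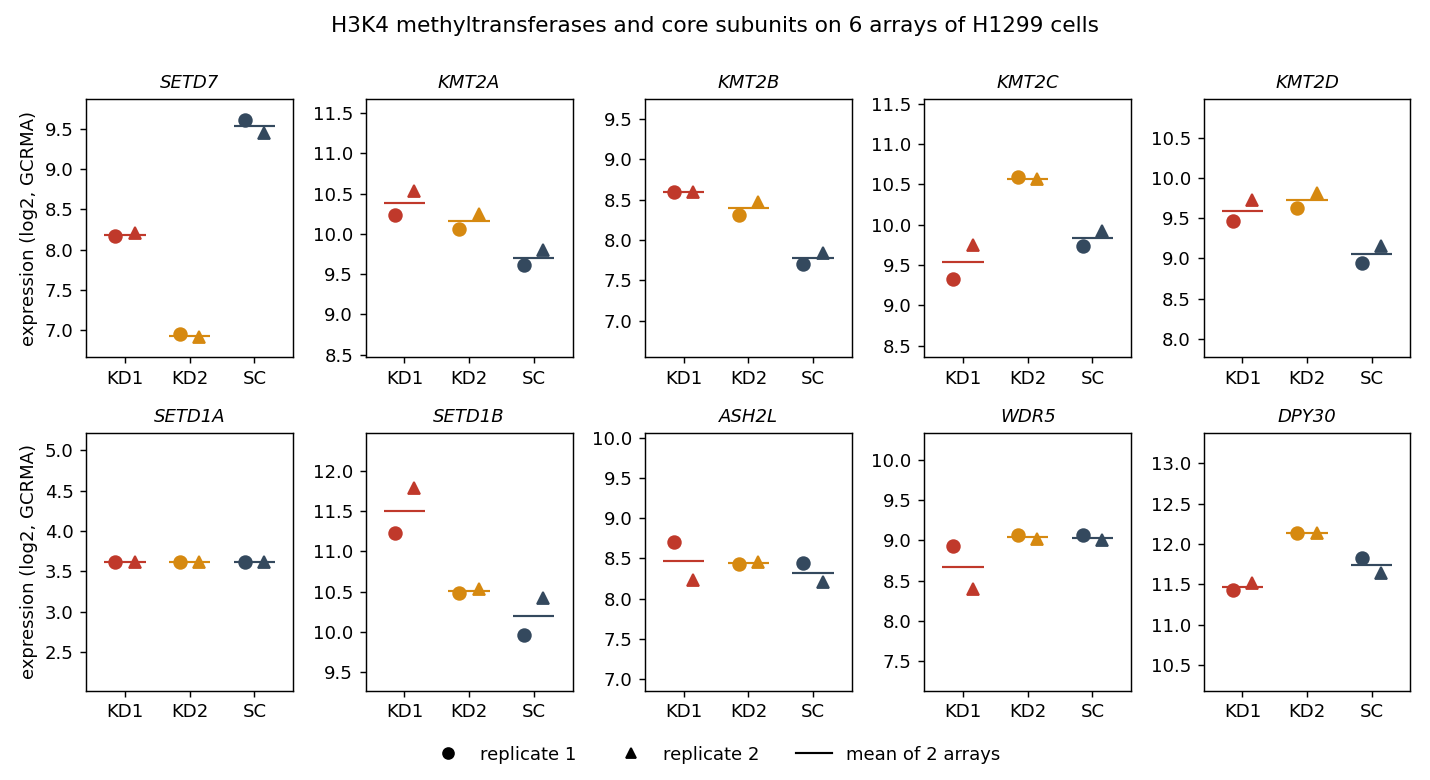
Log2 expression of the brightest probe set of each of the 10 genes on the 6 arrays, by group (KD1, KD2, SC). Circles are replicate 1, triangles replicate 2 and lines the mean of 2 arrays, and each panel spans the same log2 range. SETD7 lies lowest in KD2 cells and highest in SC cells, KMT2B, KMT2D and KMT2A are higher on all 4 knockdown arrays, and SETD1A is at 3.62 throughout.

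SETD7 had the largest change of the set and fell with both shRNAs, more with KD2. It read 8.17 and 8.20 in KD1 cells, 6.95 and 6.92 in KD2 cells, and 9.61 and 9.44 in SC cells. The 3 groups did not overlap, and the order was the same as for KDM5A, lowest in KD2 cells and highest in SC cells. SETD7 was 2.53-fold lower in KD1 cells, with a log2 fold change of -1.34 ± 0.11 (SE, adjusted p = 0.00765). It was 6.04-fold lower in KD2 cells, with a log2 fold change of -2.59 ± 0.11 (adjusted p = 0.00237). The level was higher in KD1 than in KD2 cells by 1.25 ± 0.11 on the log2 scale (adjusted p = 0.00192), and this difference was 1.22 between the replicate 1 arrays and 1.29 between the replicate 2 arrays. Over both shRNAs the log2 fold change was -1.97 ± 0.10 (adjusted p = 0.00677), and 0.551% of the tested genes had a lower value. The second SETD7 probe set stood at 2.24 on all 6 arrays and gives no second reading.

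The SETD7 calls for KD2 minus SC and for KD1 minus KD2 held whichever array was left out, with adjusted p of at most 0.0372 and 0.0242. The call for KD1 minus SC was lost without either KD1 array or either SC array (adjusted p = 0.0507 to 0.0691), at log2 fold changes of -1.42 to -1.26. The call in the mean of both shRNAs was lost when any array other than KD1 replicate 1 was left out, at log2 fold changes of -2.05 to -1.88. The call of the target KDM5A in the mean was also lost without either KD2 or SC array, at -2.40 to -2.33. Each fit without 1 array had 2 residual degrees of freedom, against 3 with all 6 arrays.

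KMT2B, which methylates promoters in the COMPASS-like complex that holds menin, rose with both shRNAs by a similar amount. It read 8.59 and 8.59 in KD1 cells, 8.31 and 8.47 in KD2 cells, and 7.70 and 7.84 in SC cells. All 4 knockdown arrays thus lay above both SC arrays. KMT2B was 1.77-fold higher in KD1 cells (log2 fold change 0.83 ± 0.12, adjusted p = 0.0209) and 1.54-fold higher in KD2 cells (0.62 ± 0.12, adjusted p = 0.0185). The difference of KD1 minus KD2 was 0.21 with a 95% confidence interval of -0.10 to 0.51, and it did not pass (adjusted p = 0.225). In the mean of both shRNAs KMT2B rose by 0.72 ± 0.10 (adjusted p = 0.0214). No fit with 1 array left out kept this call, at log2 fold changes of 0.65 to 0.80. The KD1 call was likewise lost without any 1 array, at 0.76 to 0.90. The KD2 call was lost without either KD2 or SC array, with values of 0.54 to 0.70 when 1 array was left out. As given above for SETD7, the KDM5A call in the mean was also lost in some of these fits. The other 2 KMT2B probe sets stood at 2.24 on every array.

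The start regions of SETD7 and KMT2B are shown because these 2 members moved in opposite directions with both shRNAs. KDM5A carries an ARID domain that is known to bind the letters CCGCCC. The 250 bases before the RefSeq start of each gene (GRCh38.p14) were searched for these letters on both strands, and capitals mark the matches. SETD7 lies at chr4:139556220-139556469 on the minus strand and KMT2B at chr19:35717753-35718002 on the plus strand, and both are printed 5′ to 3′ along the gene.
SETD7: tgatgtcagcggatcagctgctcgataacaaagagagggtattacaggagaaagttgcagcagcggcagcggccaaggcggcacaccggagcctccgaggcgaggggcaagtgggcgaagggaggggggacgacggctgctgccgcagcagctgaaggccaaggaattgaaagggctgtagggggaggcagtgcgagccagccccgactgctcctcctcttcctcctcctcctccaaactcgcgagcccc
KMT2B: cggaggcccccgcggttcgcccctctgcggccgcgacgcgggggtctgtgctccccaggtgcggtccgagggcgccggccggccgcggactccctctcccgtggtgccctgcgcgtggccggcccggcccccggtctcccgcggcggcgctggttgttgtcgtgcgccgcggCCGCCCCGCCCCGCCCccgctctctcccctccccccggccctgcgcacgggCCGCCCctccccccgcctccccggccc
The SETD7 window holds 0 matches and the KMT2B window holds 4, the first 3 of which overlap. The window of KMT2B is richer in G and C, at 84.4% against 64% for SETD7 and a median of 58% over all windows. CCGCCC occurs in 42.6% of the 35116 windows of this length. Promoter windows were at hand for 7 members, and 6 of them held the letters, with 15 matches for KMT2C, 4 for SETD1A, 3 for KMT2A and 2 for KMT2D. WDR5 has 4 listed starts, of which 3 held a match, and it was counted if any start did. The count of members is thus per gene, while the share of 42.6% is per window. G and C made up 92% of the KMT2C window, 78.4% for KMT2A, 65.6% for KMT2D and 65.2% for SETD1A. The part of this composition in the matches was not tested. TGATGNAA, the core of the amino acid response element bound by ATF4, occurs in 3.14% of all windows and was found for 0 of the 7 members. A match in these letters is a description of the sequence, since no binding was measured.

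KMT2A and KMT2D, the first a promoter enzyme and the second an enhancer enzyme that adds a single methyl group, read higher on all 4 knockdown arrays by about the same amount. KMT2D read 9.46 and 9.73 in KD1 cells, 9.62 and 9.81 in KD2 cells, and 8.94 and 9.16 in SC cells. It rose in KD2 cells by 0.66 ± 0.16 (1.59-fold, adjusted p = 0.0326). That call was lost without the filter on dim genes (adjusted p = 0.114) and over the mean of its probe sets (0.24, adjusted p = 0.0848). In KD1 cells the value was 0.54 ± 0.16 (adjusted p = 0.0953), which passed with the replicate block (0.0158). In the mean of both shRNAs it was 0.60 ± 0.14 (adjusted p = 0.0515, and 0.00905 with the block). Without the block this mean value passed with a minimum mean level of 6 (adjusted p = 0.0416), arrays centred on their medians (0.0429) or a variance trend (0.0459). The KD2 call was lost without either KD2 or SC array (adjusted p = 0.0759 to 0.147). Its dimmer probe sets gave smaller values of the same sign, 0.39 and 0.39 for KD2 minus SC and 0.25 and 0.10 for KD1 minus SC.

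KMT2A read 10.23 and 10.53 in KD1 cells, 10.06 and 10.25 in KD2 cells, and 9.61 and 9.80 in SC cells. Without the block and with the limit of a mean of 4, no comparison of its brightest probe set passed. The log2 fold change was 0.67 ± 0.16 for KD1 minus SC (adjusted p = 0.0606, and 0.0108 with the block). For KD2 minus SC it was 0.45 ± 0.16 (adjusted p = 0.0879, and 0.0143 with the block). In the mean it was 0.56 ± 0.14 (adjusted p = 0.0597, and 0.0105 with the block). This mean value also passed without the block when the limit was a mean of 6 (adjusted p = 0.0493). On the brightest probe sets of KMT2A and KMT2D the replicate 2 array was the higher one in all 3 groups. The dimmer KMT2D probe sets were each lower on replicate 2 in 2 groups, and 4 KMT2A probe sets in all 3. On the brightest probe sets the differences between same-numbered arrays were tight. In KD1 minus SC they were 0.62 and 0.73 for KMT2A and 0.51 and 0.57 for KMT2D. In KD2 minus SC they were 0.46 and 0.45 for KMT2A and 0.68 and 0.65 for KMT2D.

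The probe sets of KMT2A disagreed. Of its 11 probe sets 8 were bright enough to test, and 7 of these had a positive mean log2 fold change. The exception, with a mean level of 5.59, read 5.59 and 4.84 in KD1 cells, 4.99 and 5.15 in KD2 cells, and 6.62 and 6.33 in SC cells. It was lower on all 4 knockdown arrays, by -1.33 on the log2 scale in the mean of both shRNAs (adjusted p = 0.0389 in the fit over all probe sets). The dimmest of the 8, with a mean level of 4.61, read 5.06 and 5.11 in KD1 cells, 4.28 and 4.28 in KD2 cells, and 4.28 and 4.67 in SC cells, and was higher in KD1 than in KD2 cells by 0.80 (adjusted p = 0.0166). With the replicate block 2 further probe sets rose in the mean, that with a mean level of 7.70 by 0.51 (adjusted p = 0.164, and 0.0319 with the block) and that with a mean level of 5.30 by 0.39 (0.628, and 0.0337 with the block). The direction for KMT2A thus depends on the probe set read, and where each one lies in the transcript was not analysed here.

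**Figure D2:**
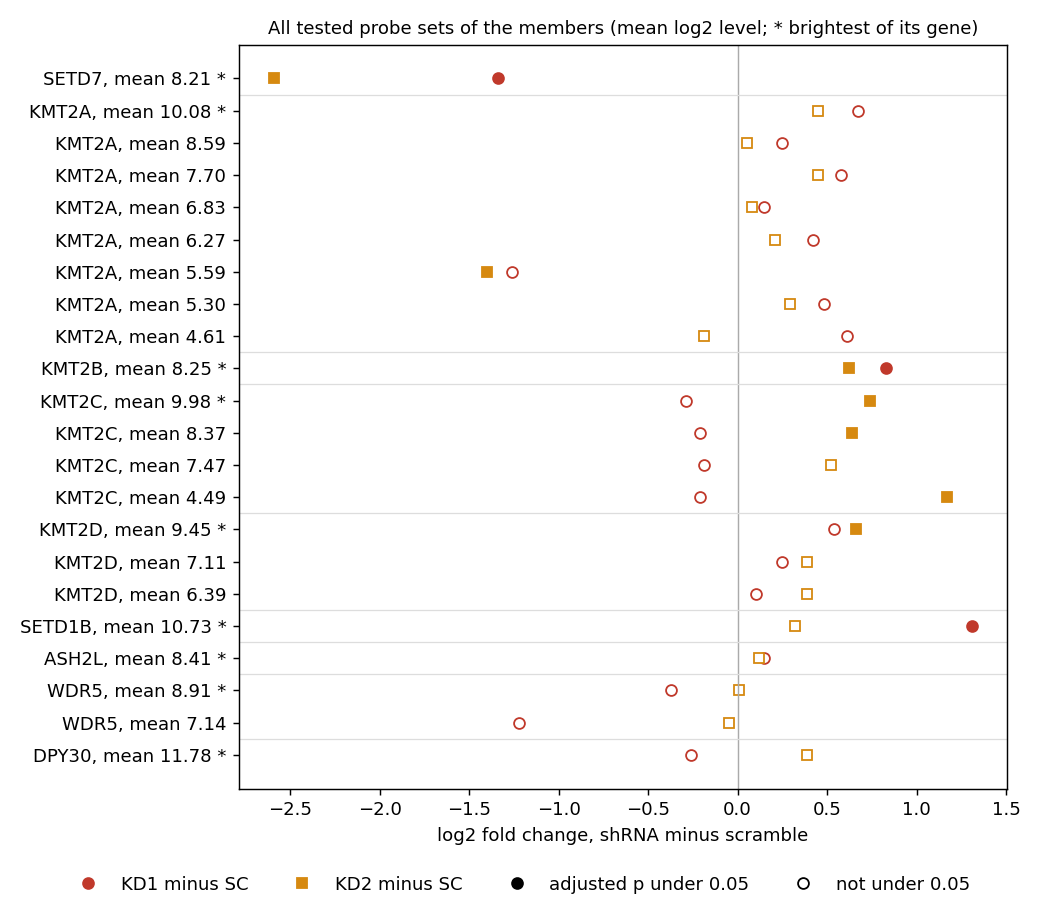
Log2 fold changes of KD1 minus SC (circles) and KD2 minus SC (squares) for the 22 tested probe sets of the members, sorted by gene and mean level, with the brightest starred. Filled symbols have an adjusted p under 0.05 in the fit over all probe sets. KMT2C values lie right of 0 for KD2 and left of 0 for KD1 in all 4 probe sets, and 1 KMT2A probe set lies far left of the others.

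KMT2C, the close relative of KMT2D in the enhancer complex, changed with KD2 and differed between the shRNAs. It read 9.32 and 9.75 in KD1 cells, 10.59 and 10.56 in KD2 cells, and 9.74 and 9.92 in SC cells. The KD2 arrays stood above all others, and the KD1 arrays overlapped with SC. KMT2C rose in KD2 cells by 0.74 ± 0.18 (1.67-fold, adjusted p = 0.0318), while KD1 minus SC was -0.29 ± 0.18 (adjusted p = 0.337). KD1 minus KD2 was -1.04 ± 0.18 (adjusted p = 0.00943). All 4 tested probe sets had a negative value for KD1 minus SC (-0.29 to -0.19) and a positive value for KD2 minus SC (0.52 to 1.17), and the dimmest gave the largest difference between the shRNAs, -1.38. The KD2 call was lost without either KD2 or SC array (adjusted p = 0.088 to 0.149), and the difference between the shRNAs without either KD2 array (0.0686 without replicate 1 and 0.0607 without replicate 2).

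SETD1B, one of the enzymes credited with bulk trimethylation of lysine 4, had the opposite pattern and rose with KD1. It read 11.22 and 11.78 in KD1 cells, 10.48 and 10.53 in KD2 cells, and 9.96 and 10.42 in SC cells. All 4 knockdown arrays lay above SC, the KD2 arrays narrowly. SETD1B rose 2.48-fold in KD1 cells (log2 fold change 1.31 ± 0.24, adjusted p = 0.0357), and 0.32 ± 0.24 in KD2 cells did not pass (adjusted p = 0.367). KD1 minus KD2 was 0.99 ± 0.24 (adjusted p = 0.0285). In the mean of both shRNAs it was 0.81 ± 0.21 (adjusted p = 0.0675, and 0.0143 with the block). Its 2 arrays differed by 0.55 in KD1 cells and by 0.45 in SC cells, replicate 2 being higher, and the KD1 call was lost without any 1 array (adjusted p = 0.0684 to 0.154) and in a fit of KD1 and SC alone (adjusted p = 0.106). The difference between the shRNAs was lost without KD1 replicate 2 (adjusted p = 0.0931), KD2 replicate 1 (0.141) or KD2 replicate 2 (0.123). SETD1B has 1 probe set, and its paralog SETD1A was not measurable at 3.62.

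Of the core subunits, none passed against SC without the block, apart from DPY30 with KD2 in some alternative fits given below. ASH2L, the subunit that helps position the SET domain, read 8.71 and 8.23 in KD1 cells, 8.43 and 8.46 in KD2 cells, and 8.44 and 8.21 in SC cells, with full overlap of the groups. Its log2 fold change in the mean was 0.13, with a 95% confidence interval of -0.29 to 0.56 (adjusted p = 0.628). WDR5, the scaffold that grips the catalytic subunit, read 8.93 and 8.40 in KD1 cells, 9.07 and 9.02 in KD2 cells, and 9.07 and 9.00 in SC cells. The KD1 replicate 2 array was the lowest, and KD2 arrays and SC arrays lay together. KD1 minus SC was -0.37 with an interval of -0.86 to 0.13 (adjusted p = 0.283), and KD2 minus SC was 0.01 with an interval of -0.48 to 0.51 (adjusted p = 0.979).

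The dimmer WDR5 probe set spread in the same way, with 6.92 and 5.77 in KD1 cells, 7.57 and 7.47 in KD2 cells, and 7.81 and 7.33 in SC cells. Its value for KD1 minus SC was -1.22 (adjusted p = 0.133, and 0.0367 with the block). On both probe sets replicate 2 was below replicate 1 in all 3 groups. In KD1 minus KD2 the dimmer probe set gave -1.18 (limma adjusted p = 0.0762, and 0.0202 with the block, in the fit over all probe sets). The brighter one gave -0.38 (adjusted p = 0.177, and 0.0898 with the block). Of all tested genes 41.1% were called in this comparison, and 57.7% with the block. Without KD1 replicate 1 the brighter probe set gave -0.64, a value that rests on a single KD1 array.

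DPY30, the small subunit that binds ASH2L, differed between the shRNAs. It read 11.43 and 11.51 in KD1 cells, 12.13 and 12.13 in KD2 cells, and 11.83 and 11.64 in SC cells, so the SC arrays lay between the 2 knockdowns. KD1 minus KD2 was -0.66 ± 0.12 (adjusted p = 0.0114). As first fitted, without the block, neither shRNA passed against SC. KD1 minus SC was -0.26 ± 0.12 (adjusted p = 0.217), and KD2 minus SC was 0.39 ± 0.12 (adjusted p = 0.0603, and 0.036 with the block). Other fits without the block called the KD2 value, with a variance trend (adjusted p = 0.0423) or over the mean of each gene's probe sets (0.0437). The call between the shRNAs was lost without KD1 replicate 1 (adjusted p = 0.053), KD2 replicate 1 (0.0654) or KD2 replicate 2 (0.0601), with values from -0.70 to -0.62.

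**Figure D3:**
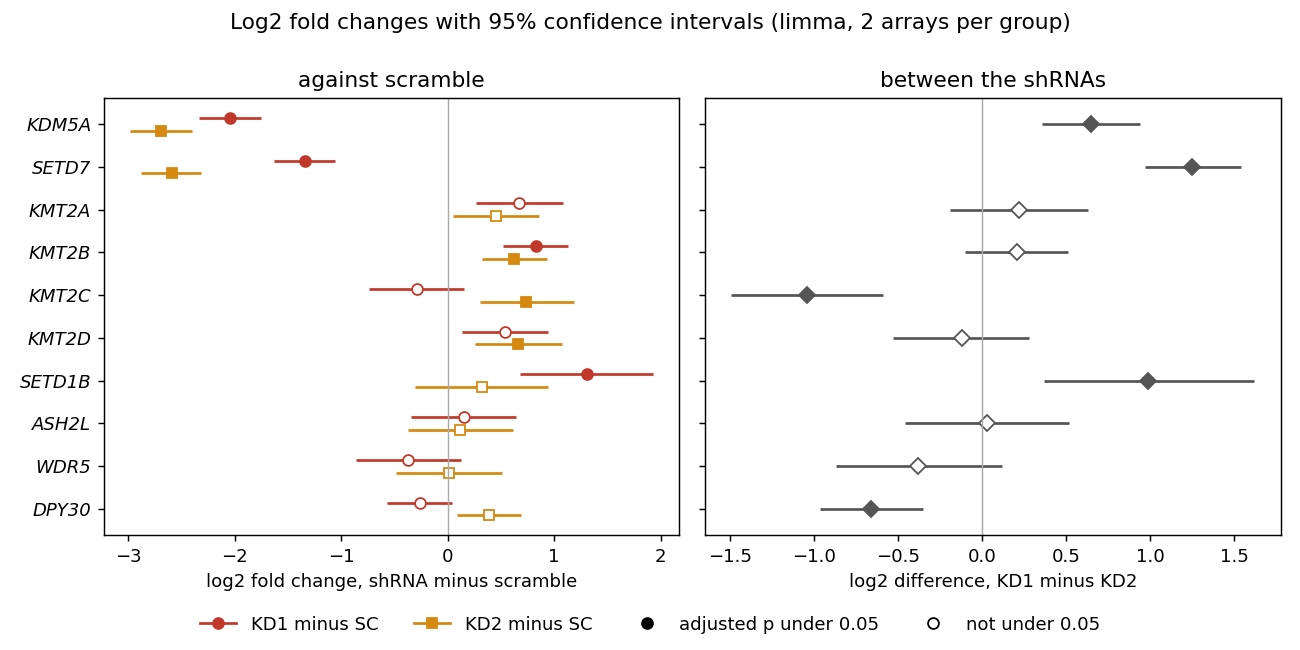
Log2 fold changes with 95% confidence intervals for KDM5A and the 9 tested members, at left KD1 minus SC (circles) and KD2 minus SC (squares), at right KD1 minus KD2 (diamonds). Filled symbols have a limma adjusted p under 0.05. SETD7 follows KDM5A to the left of 0 with both shRNAs, KMT2B is right of 0 with both, and KMT2C and SETD1B lie on opposite sides of 0 in the right panel.

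By comparison, in KD1 minus SC 2 of the 9 tested members rose (KMT2B and SETD1B) and 1 fell (SETD7), where 11.5% of all tested genes were called, 3.62% higher and 7.9% lower. With the block 4 rose and 1 fell, where 29.6% were called. In KD2 minus SC 3 rose (KMT2B, KMT2C and KMT2D) and SETD7 fell, where 31% were called, 16.7% higher and 14.4% lower. With the block 5 rose and 1 fell, where 50.6% were called. Both comparisons use the same SC arrays and share their chance deviations. KMT2B and SETD7 were the members called in 1 direction with both shRNAs, against 3.15% of all tested genes. In KD1 minus KD2 SETD1B and SETD7 were higher and KMT2C and DPY30 lower, where 41.1% of all tested genes were called (17.8% higher, 23.3% lower, and 57.7% in all with the block), so the share of members that differ between the shRNAs is near that of all genes. The median log2 fold changes of the 9 were 0.15 with KD1 and 0.39 with KD2, beside 0.00 and 0.08 for all tested genes.

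The tested genes whose profiles over the 6 arrays lay nearest to SETD7, by Euclidean distance of mean-centred log2 values, were GPAT3, ANTXR2, SHMT2 and ITGB1, at distances of 0.488, 0.526, 0.528 and 0.555. Their Pearson correlations with SETD7 were 0.998, 0.99, 0.993 and 0.98 over 6 arrays that fall into 3 groups. GPAT3 makes lysophosphatidic acid from glycerol phosphate, ANTXR2 binds anthrax toxin and collagen, SHMT2 is the mitochondrial serine hydroxymethyltransferase and ITGB1 is an integrin beta subunit. ITGB1, as an example, read 12.79 and 13.16 in KD1 cells, 11.32 and 11.69 in KD2 cells, and 14.05 and 14.38 in SC cells. Nearest to KMT2B were RHBDF2, TIPARP, VPS39 and WFS1, at distances of 0.0702, 0.129, 0.146 and 0.203 and correlations of 0.999, 0.989, 0.988 and 0.974. RHBDF2, a rhomboid-like protein that controls a shedding protease, read 7.27 and 7.31 in KD1 cells, 7.05 and 7.18 in KD2 cells, and 6.45 and 6.60 in SC cells. These neighbours are a description of likeness on these arrays.

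Of 13 COMPASS accessory subunits, all tested, limma called 0 in the mean of both shRNAs, and 3 had an unadjusted p under 0.05. With the block 2 rose, BOD1L1 by 0.36 (adjusted p = 0.0385) and NCOA6 by 0.28 (adjusted p = 0.0443), both named after their values were seen. Among all tested genes 12.5% were called in the mean, and 34.9% with the block. The median log2 fold change of the 13 was 0.04. RBBP5, the remaining core subunit, was the only one called between the shRNAs without the block, at 7.72 and 7.92 in KD1 cells, 6.90 and 7.09 in KD2 cells, and 7.28 and 7.52 in SC cells. Its KD1 minus KD2 value was 0.82 (adjusted p = 0.0117), and the call was lost without KD1 replicate 2 (0.0531) or KD2 replicate 1 (0.0766). With the block 4 accessory subunits were higher and 2 lower in KD1 than in KD2 cells, where 57.7% of all tested genes were called. RBBP5 then also passed against SC, higher with KD1 (0.42, adjusted p = 0.0266) and lower with KD2 (-0.40, adjusted p = 0.0173). Of the other SET and SMYD enzymes linked to this lysine, 4 of 7 were tested, and limma called 0 in the mean, with 0 at an unadjusted p under 0.05. SMYD2 was lower in KD1 than in KD2 cells by -0.46 (adjusted p = 0.021). The mean of its probe sets gave -0.13 (adjusted p = 0.282), and the call was lost without KD1 replicate 1 or either KD2 array (adjusted p = 0.076 to 0.0824).

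Among 6 tested demethylases of lysine 4, only KDM5A, the shRNA target itself, was called in the mean of both shRNAs. With the block KDM1B also fell (-0.83, adjusted p = 0.0365) and KDM5B rose (0.43, adjusted p = 0.0272). The KDM5B value was 0.79 with KD1 (adjusted p = 0.114, and 0.0114 with the block). With KD2 it was 0.08 (adjusted p = 0.844, and 0.583 with the block). KDM1B, a flavin-dependent demethylase, fell with KD1, at a log2 fold change of -1.82 (adjusted p = 0.0168), at 6.60 and 7.16 in KD1 cells, 9.05 and 8.69 in KD2 cells, and 8.67 and 8.74 in SC cells. The KD1 call was lost in a fit of KD1 and SC alone (adjusted p = 0.0619), without the filter on dim genes (0.0905) and without any 1 array other than KD1 replicate 2 (0.0619 to 0.107). Over the mean of its probe sets the KDM1B log2 fold change, KD1 minus SC, was -0.91 (adjusted p = 0.0334). Its KD1 minus KD2 value was -1.99 (adjusted p = 0.00364), a call that held whichever array was left out. Of 12 proteins that read methylated lysine 4, all tested, CHD1 fell and none rose in the mean, and with the block 2 fell and 2 rose. Over all tested genes 12.5% were called in the mean, and 34.9% with the block. CHD1, a chromatin remodeller whose chromodomains bind trimethylated lysine 4, read 9.84 and 9.83 in KD1 cells, 9.61 and 9.65 in KD2 cells, and 10.31 and 10.29 in SC cells. It fell in the mean by 0.57 (adjusted p = 0.0234), by 0.47 with KD1 (0.0468) and by 0.67 with KD2 (0.01). The call with KD2 was lost without either KD2 array or SC replicate 1, at log2 fold changes of -0.69 to -0.65. The call in the mean was lost without any 1 array (adjusted p = 0.0558 to 0.14), as was that with KD1 (0.0976 to 0.174). ING5, a PHD finger reader, was higher in KD1 than in KD2 cells by 0.67 (adjusted p = 0.0143). The mean of its probe sets gave 0.06 (adjusted p = 0.656), and the call was lost without KD1 replicate 1 or either KD2 array (adjusted p = 0.0567 to 0.0777).

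WDR5 also sits in the NSL and ATAC acetyltransferase complexes, of which 14 of 16 listed subunits were tested. In the mean of both shRNAs 1 rose, KAT2B, an acetyltransferase of ATAC and SAGA, by 0.93 (adjusted p = 0.0428). It read 10.15 and 10.53 in KD1 cells, 10.37 and 10.60 in KD2 cells, and 9.25 and 9.71 in SC cells. In KD2 minus SC 4 rose: KAT2B (1.00, adjusted p = 0.0263), KANSL3 (0.92, 0.00581), PHF20 (0.53, 0.0338) and TADA3 (0.87, 0.0244). With the block 6 rose and 2 fell there, where 50.6% of all tested genes were called, beside 31% without it (16.7% higher). The mean of the PHF20 probe sets gave 0.30 (adjusted p = 0.173), and its call was lost without any 1 array (adjusted p = 0.05 to 0.134) and in a fit of KD2 and SC alone (0.0596). The KAT2B call with KD2 was lost without either KD2 array or SC replicate 1 (adjusted p = 0.105 to 0.138), and that of KANSL3 without KD2 replicate 1 (0.0512). In the mean, 3 rose and none fell with the block, where 34.9% of all tested genes were called, beside 12.5% without it. The KAT2B call in the mean was lost without any 1 array (adjusted p = 0.0643 to 0.197). In KD1 minus KD2, 1 was higher and 3 lower, where 41.1% of all tested genes were called (17.8% higher, 23.3% lower). KANSL2 was higher by 0.65 (adjusted p = 0.0169), a call lost without KD1 replicate 1 or either KD2 array. Its value was 0.51 to 0.78 when 1 array was left out. KANSL3 (-1.19, adjusted p = 0.00192), PHF20 (-0.69, 0.0123) and TADA3 (-1.88, 0.00246) were lower. Over the mean of its probe sets PHF20 did not pass here (-0.44, adjusted p = 0.062). TADA3, named after its values were seen, fell with KD1 by 1.01 (adjusted p = 0.0353). It read 6.84 and 6.54 in KD1 cells, 8.76 and 8.38 in KD2 cells, and 7.63 and 7.77 in SC cells, so the shRNAs moved it in opposite directions.

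Proteins that are known as SETD7 substrates outside histones gave 8 tested genes of 12 listed. In the mean of both shRNAs RELA fell, by 0.52 (adjusted p = 0.0405), and with the block 3 fell. Of all tested genes 12.5% were called in this comparison, and 34.9% with the block. In KD2 minus SC 5 fell and 1 rose, where 31% of all tested genes were called (16.7% higher, 14.4% lower), and with the block 7 fell and 1 rose, where 50.6% were called. The median was -0.87, beside 0.08 for all tested genes. In KD1 minus SC limma called 0, with 2 at an unadjusted p under 0.05, and with the block 2 rose and 1 fell. Of all tested genes 11.5% were called there, and 29.6% with the block. The median of the substrates with KD1 was 0.26. RELA lost its call in the mean without any 1 array (adjusted p = 0.0771 to 0.164). YAP1, the Hippo pathway coactivator, read 12.60 and 12.78 in KD1 cells, 10.89 and 11.15 in KD2 cells, and 12.29 and 12.42 in SC cells, and fell with KD2 by 1.34 (adjusted p = 0.00518). RELA, the NF-kB subunit, also fell with KD2 by 1.26 (adjusted p = 0.00422) and FOXO3, a forkhead factor, by 0.77 (0.0394). STAT3 and SIRT1, named after their values were seen, fell with KD2 by 1.07 (0.049) and 0.74 (0.0375), and TAF10, a TFIID and SAGA subunit, rose by 0.72 (0.0111). The FOXO3 and TAF10 calls were each lost without either KD2 or SC array (adjusted p = 0.0752 to 0.185 and 0.0578 to 0.0622) and over the mean of their probe sets (-0.66, adjusted p = 0.0638, and 0.24, adjusted p = 0.0835). In KD1 minus KD2, 4 were higher and 1 lower, where 41.1% of all tested genes were called (17.8% higher, 23.3% lower).

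Of 8 target genes of KMT2A and menin, 2 were tested. The cell cycle inhibitor gene CDKN1B and the homeobox gene HOXC8 both rose with KD1, by 0.69 (adjusted p = 0.0355) and 0.98 (adjusted p = 0.0459). Neither call held without any 1 array (adjusted p = 0.0697 to 0.157 for CDKN1B and 0.0815 to 0.184 for HOXC8), in a fit of KD1 and SC alone (0.0697 and 0.0815) or without the filter on dim genes (0.0956 and 0.176). With KD2 the values were 0.02 and -0.24, and neither passed. Over all tested genes 3.62% were called higher with KD1, 16.7% higher with KD2 and 41.1% between the shRNAs. CDKN1B read 12.46 and 12.44 in KD1 cells, 11.91 and 11.67 in KD2 cells, and 11.72 and 11.81 in SC cells. The difference between the shRNAs passed for both, at 0.66 for CDKN1B (adjusted p = 0.0138) and 1.22 for HOXC8 (adjusted p = 0.00934). That for CDKN1B was lost without either KD1 array or KD2 replicate 2 (adjusted p = 0.0524 to 0.06), and that for HOXC8 without the filter on dim genes (0.0621).

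**Figure D4:**
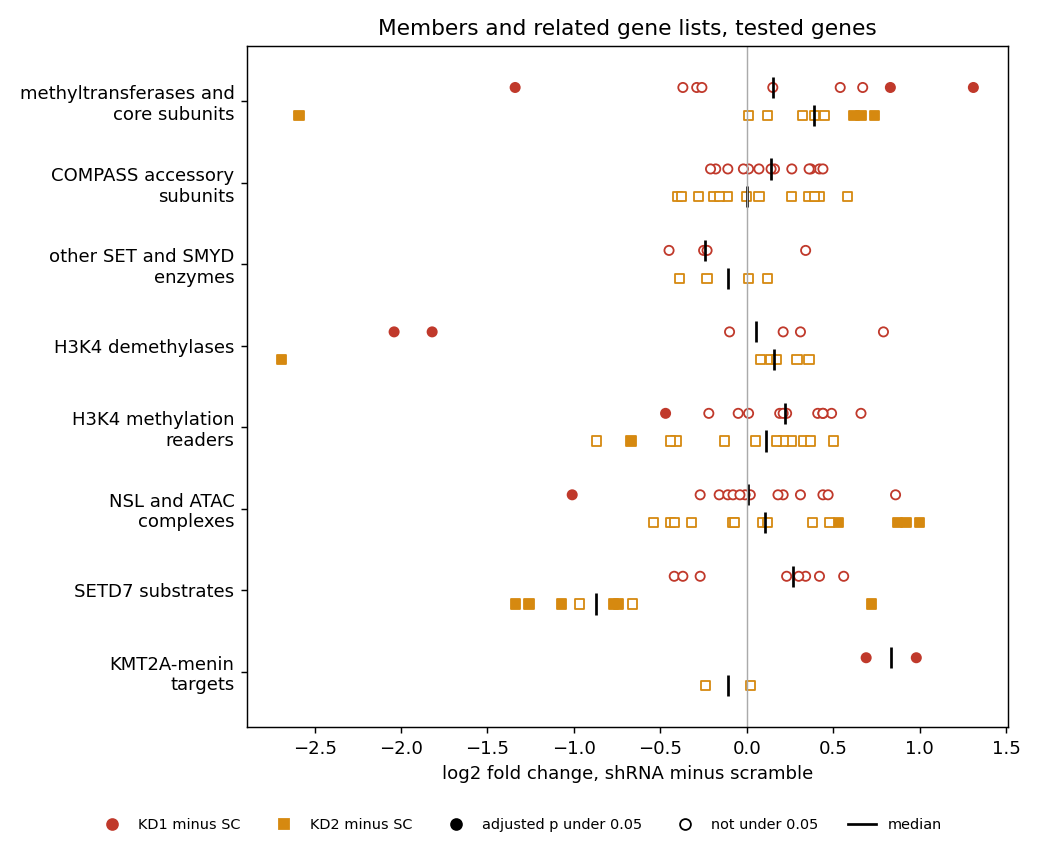
Log2 fold changes of KD1 minus SC (circles) and KD2 minus SC (squares) for the 9 tested members and the tested genes of 7 related lists, with black bars at each median. Filled symbols have a limma adjusted p under 0.05. The COMPASS accessory subunits hold no filled symbol, and the SETD7 substrates lie mostly left of 0 with KD2 (median -0.87) but not with KD1 (median 0.26).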

How the data were processed

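The authors deposited log2 expression values made with GCRMA, per the submitters' processing notes, with no version given. The method corrects background from probe sequence, normalises between arrays and summarises probe sets. It presses dim probe sets to a floor: the lowest value was 2.24, and between 40.2% and 40.9% of an array's values were within 0.005 of it. Per the labels, cRNA came from 250 ng of total RNA.

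Of 54675 probe sets 41091 carry 1 gene symbol in the platform annotation. Those with several or no symbols stayed unnamed. Each gene was its brightest probe set, tested at a mean of at least 4 over the 6 arrays (10526 of 19775 genes). Limma version 3.58.1 in R version 4.3.3 fitted 1 model over 3 groups (3 residual and 2.09 prior degrees of freedom), with two-sided tests and Benjamini-Hochberg adjustment over all tested genes. All probe sets with a mean of at least 4 were fitted likewise as a check. The fit was tested on simulated data. A log2 fold change had a median SE of 0.14 in the mean comparison and 0.17 in the others, and the number of arrays limits the precision.

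Arrays with the same number deviated together, with correlations of 0.53 (KD1 with KD2), 0.75 (KD1 with SC) and 0.51 (KD2 with SC), so the numbers from the titles were taken to pair the arrays, and the fit with the replicate block stands beside results it changes. The members and lists were chosen with earlier results of these data known. Named were KDM5A, all members, of each list up to 4 of the genes called in any comparison (by smallest adjusted p in the mean of both shRNAs), and the 4 tested genes nearest to SETD7 and to KMT2B. Alternatives were other filters, probe set rules, scaling, variance models and samples. Promoter windows and their letters are from RefSeq, GRCh38.p14.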

Additional observations from a re-analysis of the deposited data

Results flagged for a closer look

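The effects of KD1 and KD2 against the same SC arrays differed, by the test of KD1 minus KD2, for 4 members and for the target. KDM5A was higher with KD1 on its brightest probe set, by 0.65 on the log2 scale. Its other 3 tested probe sets gave 0.30, 0.38 and 0.40, and none of these passed (limma adjusted p = 0.103 to 0.229 in the fit over all probe sets). Its call was lost without KD2 replicate 1 (adjusted p = 0.0628) and without probe sets that may cross-hybridise (0.30, adjusted p = 0.158). SETD7 was likewise higher with KD1, by 1.25, a call that held whichever array was left out. SETD1B was higher with KD1 by 0.99. KMT2C and DPY30 were lower with KD1, at -1.04 and -0.66. The calls for SETD1B, KMT2C and DPY30 were each lost without either KD2 array, that for SETD1B also without KD1 replicate 2 and that for DPY30 without KD1 replicate 1. Among all tested genes 41.1% differed in this comparison.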

How the results depend on the processing

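With the replicate number as a block, called genes numbered 3670 of all tested genes in the mean of both shRNAs (1318 without it), 3117 in KD1 minus SC (1213) and 5324 in KD2 minus SC (3264), and called members 5 in the mean (2 without it) and 5 in KD1 minus SC (3). Calls among the lists in the mean numbered 2 for COMPASS accessory subunits (0 without the block), 3 for demethylases (1), 4 for readers (1), 3 for NSL and ATAC subunits (1) and 3 for SETD7 substrates (1). The demethylase counts take in KDM5A, the shRNA target. No member lost a call with the block. Without the filter on dim genes the counts over all genes were 332 in the mean, 311, 1470 and 2477 (KD1 minus SC, KD2 minus SC, KD1 minus KD2), those of members 1, 1, 2 and 2, and those of the NSL and ATAC and substrate lists 0 each. A fit of KD1 and SC alone called 191 genes and 1 member. A minimum of 6 gave 4 members and 2 demethylases in the mean, the mean of all probe sets 1 member and 0 substrates, leaving out cross-hybridising probe sets 0 substrates, centred arrays 2 NSL and ATAC subunits, and a variance trend 2 substrates.

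Without 1 array each, limma called 0 to 457 genes in the mean, 0 to 191 in KD1 minus SC, 624 to 2928 in KD2 minus SC and 1874 to 3718 in KD1 minus KD2, and 0 to 1, 0 to 1, 1 to 4 and 1 to 4 members. At 0 calls in the mean, without either KD2 or SC array, 2247 to 2818 genes had an unadjusted p under 0.05. The lists gave 0 to 1 calls for demethylases and 0 for readers, NSL and ATAC subunits and substrates. The mean log2 fold change was -2.40 to -2.33 for KDM5A and -2.05 to -1.88 for SETD7, and the KDM5A call in the mean was lost without either KD2 or SC array.

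Some signs turned. In the mean, ING5 was 0.05 over all probe sets, and without 1 array RBBP5 ranged from -0.11 to 0.13 and DPY30 from -0.03 to 0.16. In KD1 minus SC, ASH2L ranged from -0.09 to 0.39. In KD2 minus SC, over all probe sets, KMT2A was -0.05, WDR5 -0.02, SMYD2 -0.14 and ING5 0.02. Without 1 array the ranges were -0.03 to 0.05 for WDR5, -0.02 to 0.35 for KDM1B, -0.10 to 0.15 for CDKN1B and -0.01 to 0.03 for SMYD2. In KD1 minus KD2 they were -0.26 to 0.01 for KMT2D, -0.21 to 0.27 for ASH2L and -0.33 to 0.04 for KAT2B. Of single probe sets, the KMT2A probe set of mean level 5.59 gave -1.33 in the mean, -1.26 with KD1 and -1.40 with KD2, that of 4.61 gave -0.19 with KD2, and the dimmer of WDR5 -0.05 with KD2. The cause was not tested. Of 487 values of members, 405 kept direction and side of the threshold, 60 lost a call, 14 gained one and 8 turned. The small number of arrays limits precision.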

Other observations

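The shift between replicate 1 and replicate 2 arrays differed among probe sets of the same gene. For KMT2A the brightest probe set was higher on the replicate 2 array by 0.30 in KD1, 0.19 in KD2 and 0.19 in SC cells, and that with a mean level of 7.70 by 0.53, 0.39 and 0.14. The KMT2A probe set with a mean level of 5.30 was lower on the replicate 2 array in every group, by -0.97 in KD1, -1.04 in KD2 and -0.86 in SC cells. Of the 8 tested KMT2A probe sets, 2 were higher and 4 lower on replicate 2 in all 3 groups, a difference of 0.00 at 2 decimals counting as neither. Over all 22 tested probe sets of the members, 4 were higher and 6 lower in all 3 groups. The labels do not say what the replicate number stands for.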
